A study of Mus musculus with 12 samples.

Results

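The genes described here are 9 receptors and co-receptors of the transforming growth factor beta (TGF-β) superfamily other than Tgfbr2, the gene of the TGF-β type II receptor (TβRII). They were taken by name: the type I receptors Tgfbr1, Acvr1b, Acvr1 and Bmpr1a, the type II receptors Acvr2a, Acvr2b and Bmpr2, and the co-receptors Tgfbr3 and Eng. They are 9 of the 25514 genes to which the deposited counts could be assigned, and all 9 were among the 12971 genes that passed the filter on low counts and were tested.

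RNA sequencing was performed on proximal tubule (PT) cells in culture, derived from male mice with floxed Tgfbr2 alleles that also carried the Immorto-mouse transgene (H2ts6), a temperature-sensitive T antigen driven by an interferon-responsive H2-Kb promoter. TβRII flox/flox PT cells (genotype H2ts6;Tgfbr2fl/fl, called floxed cells from here on) were compared with TβRII-/- PT cells (H2ts6;Tgfbr2-/-, called null cells), which were made from the floxed cells with Cre adenovirus in vitro. Both were left untreated or given H2O2 over 24 h, and each of the 4 groups had 3 libraries. All cells were expanded at 33 °C with interferon γ and moved to 37 °C for 5 days before the experiment. Untreated cells stayed in complete medium with 2.5% serum whereas H2O2 was given in serum-free medium, so that H2O2 and serum withdrawal cannot be told apart. The labels give the H2O2 dose as 200 mM, and the study's methods give it in μM. Each genotype was a single cell population, and the labels do not say whether the replicates were separate cultures (the methods speak of independent experiments or biological replicates for in vitro work in general), so that the p-values measure the spread between libraries, which may be technical, and the deletion cannot be told apart from other differences between the cell populations.

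Ligands of this superfamily bind pairs of type II and type I receptors, both of which are serine/threonine kinases. The type II receptor phosphorylates the type I receptor, which then phosphorylates receptor-regulated Smads: Smad2 and Smad3 downstream of the TGF-β and activin type I receptors, and Smad1, Smad5 and Smad9 downstream of the bone morphogenetic protein (BMP) type I receptors. The TGF-β isoforms need TβRII, whereas activins and BMPs use Acvr2a, Acvr2b and, for BMPs, Bmpr2. In the kidney, TGF-β is known for its part in fibrosis and BMP7 for its part in nephron formation.

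Counts were deposited per transcript and each gene was represented by its transcript with the highest total count. Counts over these transcripts summed to between 15870155 and 20857618 per library. Values below are normalized counts, which are counts scaled to 1 common effective library size by the trimmed mean of M values (TMM), and every log2 fold change, its standard error (SE) and its adjusted p were obtained with the quasi-likelihood method of edgeR, the p-values being adjusted by Benjamini-Hochberg over the 12971 genes. A gene was called at an adjusted p under 0.05. The sum of the 12 proximal tubule markers examined was 1776 to 2111 CPM (counts scaled to the same total in every library) in untreated floxed libraries, 1366 to 1456 in untreated null, 2175 to 2336 in treated floxed and 1408 to 1485 in treated null libraries. Of the 8 tested, 6 were lower and 1 higher in untreated null cells. The defining transporters Slc34a1, Slc22a6 and Slc22a8 and the transcription factor Hnf4a had at most 2 counts in any library, whereas Lrp2, Aqp1 and Pax8 were well counted. The epithelial markers Cdh1, Epcam, Krt8, Krt18 and Cdh16 were all higher in null cells, and Cdh1 had 1.80 normalized counts in untreated floxed cells and 1111 in untreated null cells. Of 4 fibroblast and mural markers tested, Acta2 and Dcn were higher and Col1a1 and Pdgfrb lower in untreated null cells. The summed level of the 8 in the list was 30.1 to 31.7 CPM in untreated floxed and 136 to 152 in untreated null libraries (14.4 to 16.1 and 36.1 to 44.0 with H2O2). Most of this sum was Acta2, at 469 normalized counts in untreated floxed and 2495 in untreated null cells. In the same order Dcn had 1.46 and 5.51, Col1a1 42.0 and 14.3, and Pdgfrb 16.3 and 2.41. The 1 leukocyte marker tested, Cd68, was higher in untreated null cells, where the sum of 5 was 13.3 to 14.6 CPM against 7.62 to 8.27 in floxed cells (12.8 to 15.8 and 7.99 to 8.69 with H2O2). In bulk RNA, more cells of a kind and more RNA per cell cannot be told apart, and the part of these marker differences in the receptor values was not tested.

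Tgfbr2 (ENSMUSG00000032440, transcript Tgfbr2-202, chromosome 9 from 116087695 to 116175363) was read in every library. It had 9248, 8369 and 7562 normalized counts in untreated floxed cells and 6782, 6675 and 6358 in untreated null cells (log2 fold change −0.35, SE 0.066, adjusted p = 2.81e-05). With H2O2 it had 13275, 13918 and 13707 in floxed cells and 7221, 7311 and 7116 in null cells (log2 fold change −0.92, SE 0.066, adjusted p = 6.62e-14). The counts cover whole transcripts and do not show a deleted exon, so they neither bear out nor contradict the genotype labels.

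The 250 bases before the start of a RefSeq transcript are shown for 3 well-counted receptors, 1 that was higher and 2 that were lower in null cells, and for Eng, the only gene among those with a window that held no GC box. They come from RefSeq on the GRCm38.p6 build, and 8 of the 9 genes, all but Tgfbr3, matched a window. A gene can have other starts that these windows do not cover, and the windows of Acvr2b and Bmpr1a and the second of Tgfbr1, which are not printed, lie within the RefSeq span of their gene. For Acvr1 alone, bases that follow the start in the record were not found in an annotated transcript of the gene (GENCODE M39), so its start is less certain. The windows are Acvr2a (chr2:48813859-48814108, plus strand), which was higher in null cells, Acvr1 (chr2:58566829-58567078, minus strand) and Bmpr2 (chr1:59764029-59764278, plus strand), which were lower, and Eng (chr2:32646345-32646594, plus strand). They are written 5′ to 3′ on the strand of the gene, and capitals mark the GC box GGGCGG on either strand.
Acvr2a: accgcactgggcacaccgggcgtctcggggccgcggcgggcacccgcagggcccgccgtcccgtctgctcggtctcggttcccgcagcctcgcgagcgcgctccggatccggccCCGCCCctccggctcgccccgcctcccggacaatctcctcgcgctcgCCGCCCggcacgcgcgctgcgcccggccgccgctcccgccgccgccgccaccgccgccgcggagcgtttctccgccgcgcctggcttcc
Acvr1: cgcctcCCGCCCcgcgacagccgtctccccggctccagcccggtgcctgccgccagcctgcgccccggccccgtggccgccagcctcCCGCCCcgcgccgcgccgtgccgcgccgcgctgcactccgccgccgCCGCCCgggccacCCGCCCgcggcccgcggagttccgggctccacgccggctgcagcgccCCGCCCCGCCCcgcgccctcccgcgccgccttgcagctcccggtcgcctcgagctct
Bmpr2: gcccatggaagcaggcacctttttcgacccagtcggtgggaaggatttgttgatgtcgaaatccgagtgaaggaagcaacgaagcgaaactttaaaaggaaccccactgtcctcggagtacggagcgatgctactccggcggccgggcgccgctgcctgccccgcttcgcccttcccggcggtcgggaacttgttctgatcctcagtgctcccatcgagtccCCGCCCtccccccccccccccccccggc
Eng: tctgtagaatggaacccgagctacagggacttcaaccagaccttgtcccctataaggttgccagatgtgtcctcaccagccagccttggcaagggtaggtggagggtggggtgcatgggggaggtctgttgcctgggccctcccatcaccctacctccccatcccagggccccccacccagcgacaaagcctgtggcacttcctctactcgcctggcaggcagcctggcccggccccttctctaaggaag

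The Acvr1 window held 6 GC boxes, Acvr1b and Bmpr1a held 4 each, Acvr2b held 3, Acvr2a and the first of the pair of Tgfbr1 windows held 2 each, Bmpr2 held 1, and Eng held none. Of all 32851 RefSeq windows of the same length, 32.7% held at least 1. GC content was 85.6% for Acvr1, 82.0% for Acvr2a, 64.0% for Bmpr2 and 62.4% for Eng, against a median of 52.4% over all windows. Eng had 4 CpG dinucleotides, whereas Acvr1 had 46, Acvr2a 49 and Bmpr2 22, against a median of 6. The palindromic Smad element GTCTAGAC, searched on both strands like every motif here, was in none of the receptor windows and in 0.167% of all windows. The CCAAT box was found once in Bmpr1a and 2 times in the first Tgfbr1 window, and in 33.8% of all windows. The GC-rich element GGCGCC was found once each in Bmpr1a, Bmpr2 and Tgfbr1, and in 9.59% of all windows. The antioxidant response element TGACNNNGC was found only in the first Tgfbr1 window among these genes, and in 10.2% of all windows. These matches describe letters in a window and are not evidence of a bound factor.

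Between untreated genotypes, 8 of the 9 receptor genes differed, 4 higher (Acvr1b, Acvr2a, Acvr2b and Tgfbr3) and 4 lower (Tgfbr1, Acvr1, Bmpr1a and Bmpr2) in null cells, and Eng did not pass the test. Because 64.7% of all genes tested were called in this comparison (33.3% higher and 31.4% lower), the number of receptors called is not by itself a result about them. The median absolute log2 fold change was 0.73 over the 9 receptors and 0.34 over all genes, but not every receptor lay above that middle. A larger absolute change than that of Tgfbr1 was seen in 54.4% of all genes. For Eng this share was 49.1% and for Bmpr1a 44.0%. In 8 of the 9 the libraries of the 2 genotypes did not overlap, against 65.3% of all genes. With the limits of the study, taken here as an unadjusted p under 0.01 and a fold change of at least 1.5, 6 receptors passed, against 27.0% of all genes.

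**Figure D1:**
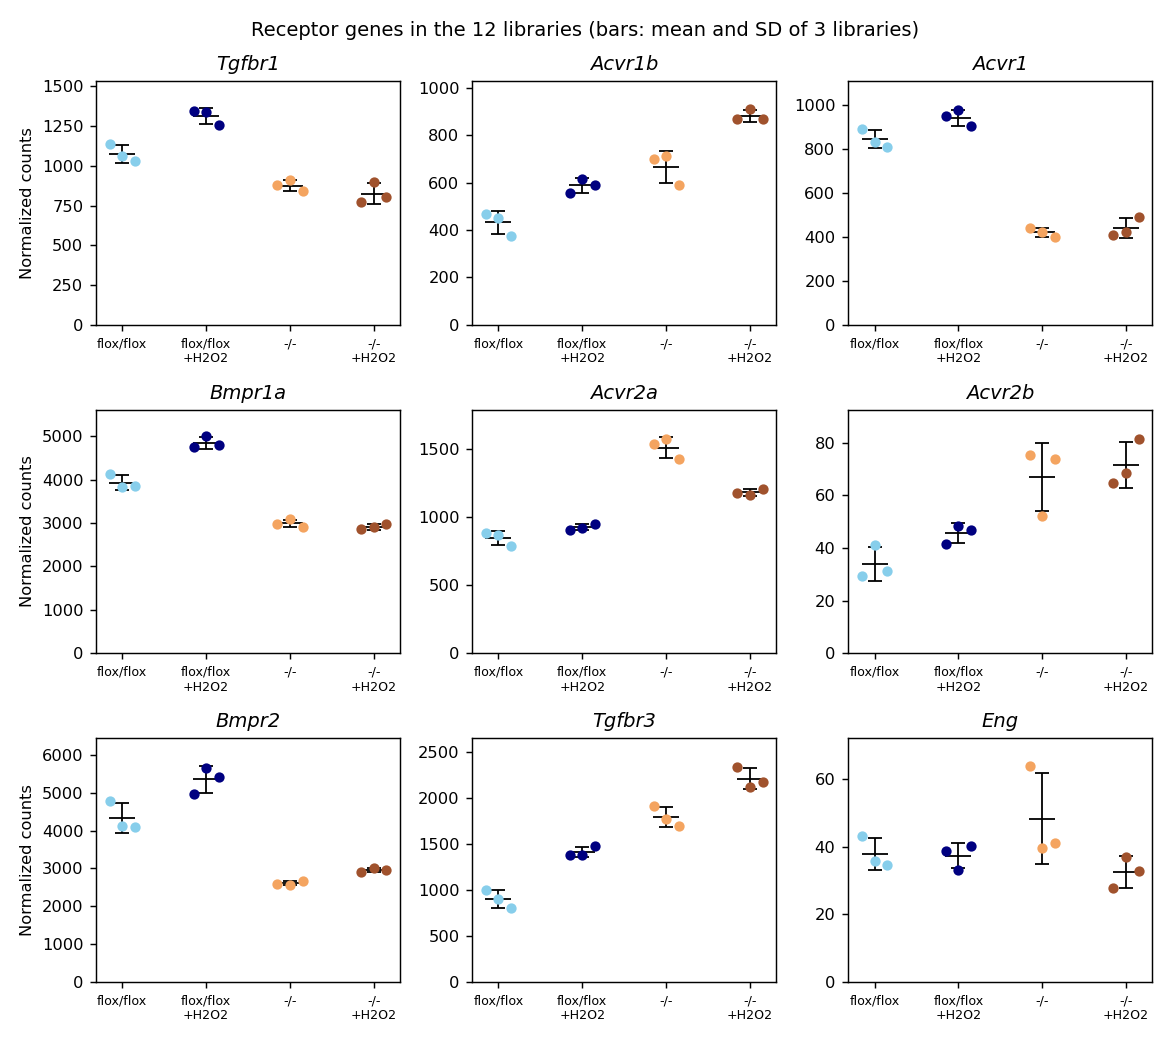
Normalized counts of the 9 receptor genes (vertical axes, each from 0) in the 12 libraries, by group: untreated and H2O2-treated floxed (flox/flox) and null (-/-) cells. Points are libraries and bars are the mean and SD of 3; Acvr1, Bmpr1a and Bmpr2 lie lower and Acvr2a, Acvr2b and Tgfbr3 higher in all null libraries than in the floxed libraries of the same treatment.

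Among the type I receptors of the TGF-β and activin branch, Tgfbr1 was lower and Acvr1b higher in null cells. Tgfbr1 (ENSMUSG00000007613, transcript Tgfbr1-201, chromosome 4 from 47353222 to 47414926) encodes ALK5, the type I partner of TβRII. Untreated, it had 1138, 1059 and 1030.3 normalized counts in floxed cells and 878, 910.1 and 841 in null cells, a log2 fold change of −0.30 (SE 0.067, adjusted p = 0.000300). After H2O2 the values were 1346, 1339.8 and 1256 in floxed cells and 769.8, 901 and 805 in null cells, a log2 fold change of −0.67 (SE 0.066, adjusted p = 1.71e-10). The genotypes did not overlap under either condition, and the libraries of floxed cells with H2O2 were the highest of the 4 groups. Tgfbr1 rose with H2O2 in floxed cells by 0.29 (SE 0.066, adjusted p = 0.000711) on the log2 scale, and in null cells the treated and untreated libraries overlapped (−0.084, SE 0.068, adjusted p = 0.339).

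Acvr1b (ENSMUSG00000000532, transcript Acvr1b-201, chromosome 15 from 101174072 to 101213684) encodes ALK4, the activin type I receptor. It had 469, 449.6 and 376 normalized counts in untreated floxed cells and 699.6, 712 and 589.7 in untreated null cells. With H2O2 the libraries held 556, 616 and 591 in floxed cells and 868, 908 and 866 in null cells. Each of the 4 groups lay apart from its neighbour under the same contrast, and null cells with H2O2 were the highest. The genotype difference was 0.63 (SE 0.083, adjusted p = 8.45e-08) untreated and 0.58 (SE 0.078, adjusted p = 8.64e-08) with H2O2. Acvr1b rose with H2O2 in both genotypes, by 0.44 (SE 0.085, adjusted p = 9.15e-05) in floxed cells and by 0.40 (SE 0.077, adjusted p = 0.000100) in null cells, and the difference between the responses was −0.042 (95% interval −0.27 to 0.18, adjusted p = 0.879). In counts of the same libraries, Acvr1b was 0.511 times Acvr1 in untreated floxed cells (libraries 0.465 to 0.540) and 1.59 times Acvr1 in untreated null cells (1.47 to 1.69), so that the order of these 2 type I receptors by count was turned around.

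Of the 9 genes, the BMP type I receptors Acvr1 and Bmpr1a were both lower in null cells. Acvr1 (ENSMUSG00000026836, transcript Acvr1-202, chromosome 2 from 58446438 to 58566828) encodes ALK2, a type I receptor for several BMPs. It had 890.01, 832 and 809 normalized counts in untreated floxed cells and 438, 420.2 and 401 in untreated null cells, which is 0.497 times the level on the fitted scale (log2 fold change −1.01, SE 0.076, adjusted p = 2.65e-13). After H2O2 the libraries held 949, 975 and 903 in floxed cells and 409, 419.9 and 492 in null cells (log2 fold change −1.10, SE 0.074, adjusted p = 1.48e-14). The highest null library was far below the lowest floxed library under both conditions, and the difference was the largest in size of the receptors that were lower. The log2 fold change with H2O2 was 0.16 (SE 0.071, adjusted p = 0.0699) in floxed cells, where the groups did not overlap but the test was not passed, and 0.066 (SE 0.079, adjusted p = 0.536) in null cells.

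Bmpr1a (ENSMUSG00000021796, transcript Bmpr1a-201, chromosome 14 from 34411061 to 34503336) encodes ALK3, a type I receptor for BMP2 and BMP4. It had 4128, 3824 and 3842 normalized counts in untreated floxed cells and 2973, 3086 and 2918 in untreated null cells (log2 fold change −0.39, SE 0.057, adjusted p = 4.01e-07). With H2O2 it had 4747, 4995 and 4786 in floxed cells and 2852, 2902 and 2970.4 in null cells (log2 fold change −0.74, SE 0.057, adjusted p = 4.81e-13). The genotypes did not overlap, and the treated floxed libraries were the highest. Bmpr1a rose with H2O2 in floxed cells (0.30, SE 0.057, adjusted p = 7.44e-05), and in null cells the difference was −0.041 with a 95% interval of −0.15 to 0.071 and overlapping libraries.

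The 3 type II receptors other than Tgfbr2 were split, with the activin receptors higher and the BMP receptor lower in null cells. Acvr2a (ENSMUSG00000052155, transcript Acvr2a-201, chromosome 2 from 48814109 to 48903264) encodes the activin type IIA receptor, which also binds BMPs. It had 881, 865 and 788 normalized counts in untreated floxed cells and 1533, 1571 and 1423 in untreated null cells, a log2 fold change of 0.84 (SE 0.063, adjusted p = 2.39e-13). With H2O2 the values were 906, 921 and 948 in floxed cells and 1172, 1163 and 1208 in null cells, a log2 fold change of 0.35 (SE 0.063, adjusted p = 1.03e-05). The genotypes did not overlap under either condition, but they were closer to each other with H2O2. In null cells Acvr2a fell with H2O2 (−0.35, SE 0.060, adjusted p = 2.14e-05), and no other receptor called in an H2O2 comparison was lower with H2O2. In floxed cells the log2 fold change was 0.13 (SE 0.065, adjusted p = 0.105), with the treated libraries all above the untreated ones.

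Acvr2b (ENSMUSG00000061393, transcript Acvr2b-205, chromosome 9 from 119401583 to 119442148), the activin type IIB receptor, was the least abundant receptor per length, with 28 to 87 counts per library. It had 29.5, 41.2 and 31.2 normalized counts in untreated floxed cells and 75.3, 52.3 and 73.7 in untreated null cells (log2 fold change 0.98, SE 0.21, adjusted p = 0.000155). The treated libraries held 41.6, 48.5 and 47.0 in floxed cells and 64.6, 68.4 and 81.5 in null cells (log2 fold change 0.64, SE 0.20, adjusted p = 0.00467). All null libraries were above all floxed libraries of either treatment. At these counts the H2O2 differences had wide 95% intervals, −0.017 to 0.88 in floxed cells and −0.26 to 0.44 in null cells, and neither passed the test (adjusted p = 0.132 and 0.727).

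Bmpr2 (ENSMUSG00000067336, transcript Bmpr2-201, chromosome 1 from 59764279 to 59878081), the BMP type II receptor, had 4787, 4118 and 4097 normalized counts in untreated floxed cells and 2583, 2569 and 2681 in untreated null cells. The log2 fold change was −0.73 (SE 0.065, adjusted p = 1.27e-11). With H2O2 it had 4977, 5672 and 5429.9 in floxed cells and 2898, 3003 and 2949 in null cells, a log2 fold change of −0.86 (SE 0.064, adjusted p = 1.83e-13). The lowest floxed library exceeded the highest null library under both conditions. Bmpr2 rose with H2O2 in floxed cells (0.31, SE 0.063, adjusted p = 0.000244) and, to a smaller degree, in null cells (0.18, SE 0.065, adjusted p = 0.0300). That last call was lost in 9 of the 12 fits that left out 1 library (adjusted p from 0.0505 to 0.0942), and it was kept only without untreated floxed replicate 1 or 3 or untreated null replicate 3.

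The co-receptors have no kinase activity of their own. Tgfbr3 (ENSMUSG00000029287, transcript Tgfbr3-201, chromosome 5 from 107106567 to 107289629) encodes betaglycan, which presents TGF-β2 to TβRII and also binds inhibin. It had 1005, 905 and 809 normalized counts in untreated floxed cells and 1913, 1774 and 1696 in untreated null cells, a log2 fold change of 0.98 (SE 0.070, adjusted p = 6.97e-14). With H2O2 it had 1381, 1378 and 1479.5 in floxed cells and 2338, 2118 and 2175 in null cells, a log2 fold change of 0.65 (SE 0.067, adjusted p = 4.77e-10). No library of one group fell within the range of another, and the order ran from untreated to treated floxed and then from untreated to treated null cells. Tgfbr3 rose with H2O2 by 0.64 (SE 0.071, adjusted p = 1.31e-08) in floxed cells and by 0.30 (SE 0.066, adjusted p = 0.000510) in null cells.

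Eng (ENSMUSG00000026814, transcript Eng-201, chromosome 2 from 32646595 to 32682669) encodes endoglin, a co-receptor known mainly from endothelial cells. It had 43.1, 35.6 and 34.4 normalized counts in untreated floxed cells and 63.8, 39.7 and 41.2 in untreated null cells, and with H2O2 38.6, 33.1 and 40.1 in floxed cells and 27.7, 37.0 and 32.8 in null cells. The genotypes overlapped under both conditions, with log2 fold changes of 0.34 (SE 0.23, adjusted p = 0.193) and −0.19 (SE 0.24, adjusted p = 0.511), and replicate 1 of the untreated null cells stood above the other libraries. Without that library the untreated log2 fold change was 0.097 (adjusted p = 0.755). With 30 to 61 counts per library, the 95% intervals ran from −0.11 to 0.80 untreated and from −0.66 to 0.29 with H2O2. The log2 fold change with H2O2 was −0.55 (SE 0.23, adjusted p = 0.0542) in null cells, where treated libraries were all below untreated ones. Of 7 endothelial markers only Kdr was tested, with 129 and 507 normalized counts in untreated floxed and null cells and 21.6 and 48.1 with H2O2, and the sum of the 7 ranged from 1.55 to 34.1 CPM. Pecam1 and Cdh5, which define endothelial cells, had at most 1 and 4 counts in any library.

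With H2O2, 8 of the 9 receptors differed between the genotypes, the same 4 higher and the same 4 lower as in untreated cells, against 66.4% of all genes called (35.1% higher and 31.3% lower). In 8 of the 9 the libraries did not overlap, against 71.0% of all genes. The limits of the study were passed by 6 receptors, against 29.8% of all genes, with 2 higher (Acvr2b and Tgfbr3, against 16.9%) and 4 lower (Tgfbr1, Acvr1, Bmpr1a and Bmpr2, against 12.9%). The median absolute log2 fold change was 0.65 over the receptors and 0.35 over all genes.

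**Figure D2:**
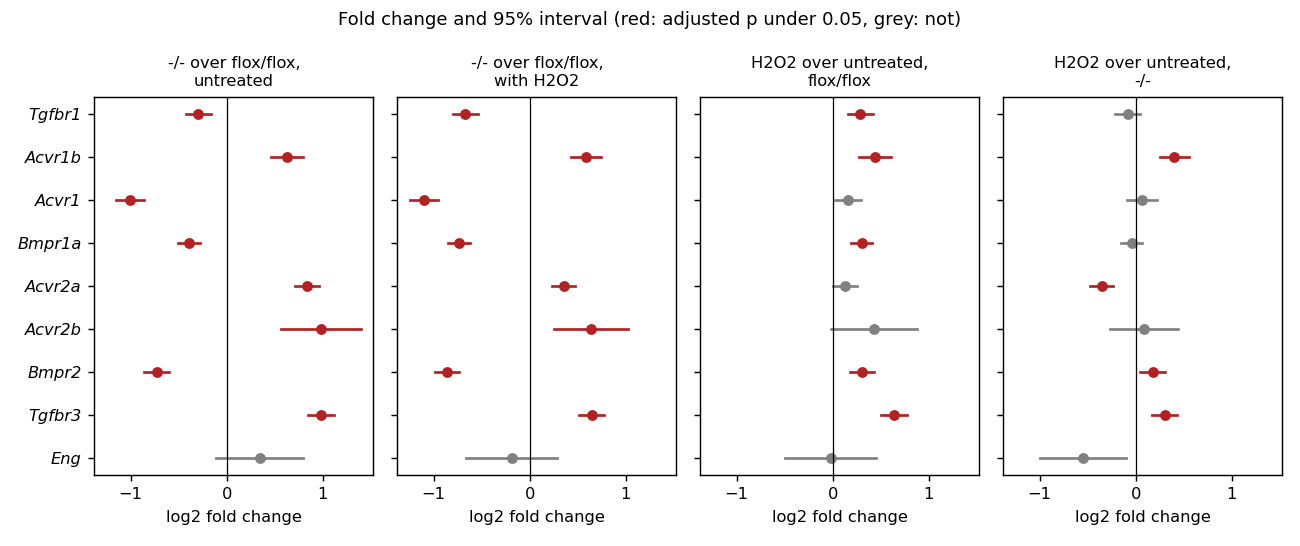
Log2 fold change (horizontal axes) of the 9 receptor genes in the 4 comparisons, with 95% intervals; red marks an adjusted p under 0.05 and grey the others. Intervals for Acvr2b and Eng are the widest, and all 5 receptors called for H2O2 in floxed cells lie to the right of 0.

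In floxed cells, 5 receptors rose with H2O2 (Tgfbr1, Acvr1b, Bmpr1a, Bmpr2 and Tgfbr3) and none fell by the edgeR test, while 41.6% of all genes were called, 21.0% as higher and 20.5% as lower. The treated libraries did not overlap the untreated ones in 8 of the 9, all higher, against 24.1% of all genes that were higher without overlap. Tgfbr3 alone passed the limits of the study, against 7.56% of all genes. The median log2 fold change was 0.30 over the receptors and 0.0068 over all genes.

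In null cells, 3 receptors rose with H2O2 (Acvr1b, Bmpr2 and Tgfbr3) and Acvr2a fell, against 39.6% of all genes called (20.5% higher and 19.1% lower). In 5 of the 9 the treated and untreated libraries did not overlap, against 52.1% of all genes. No receptor passed the limits of the study, against 7.77% of all genes. The median log2 fold change was 0.066 over the receptors and 0.018 over all genes.

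The difference between the genotypes in the response to H2O2 was tested as the interaction of genotype and treatment. It was called for 4 of the 9 receptors, Tgfbr1, Bmpr1a, Acvr2a and Tgfbr3, in all 4 as a smaller or opposite change in null cells, against 10.2% of all genes called and 6.28% called as lower. Among those called, the largest was Acvr2a at −0.48 (SE 0.089, adjusted p = 0.000408). Tgfbr1 followed at −0.37 (SE 0.095, adjusted p = 0.00951), a difference lost without replicate 1 of the treated null cells (−0.32, adjusted p = 0.0509). Bmpr1a was at −0.34 (SE 0.080, adjusted p = 0.00531). Tgfbr3 was at −0.34 (SE 0.097, adjusted p = 0.0221), lost without replicate 1 of the untreated (adjusted p = 0.0753) or replicate 2 of the treated null cells (adjusted p = 0.0731). For Bmpr2 the interaction was −0.13 with a 95% interval of −0.31 to 0.047, and for Acvr1 −0.093 with −0.30 to 0.11, neither of which passed. The 2 receptors with low counts had larger values with wide intervals, and neither passed. Eng was at −0.53 (95% interval −1.19 to 0.13) and Acvr2b at −0.34 (−0.91 to 0.23). Tgfbr2 itself had an interaction of −0.57 (SE 0.092, adjusted p = 7.85e-05).

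Levels can be compared between genes only per length, and are given here as CPM per kb, with lengths from a later annotation than the one used for counting, which makes the order approximate. In untreated floxed cells Bmpr1a was the highest at 37.3 ± 1.62 (SD, n = 3), followed by Bmpr2 at 19.3 ± 1.75 and Acvr1 at 11.5 ± 0.569. Tgfbr1 at 10.6 ± 0.551 overlapped Acvr1, and Tgfbr3 at 8.58 ± 0.927 overlapped Acvr2a at 8.02 ± 0.469. Acvr1b at 5.60 ± 0.634, Eng at 0.623 ± 0.0781 and Acvr2b at 0.182 ± 0.0340 closed the order, each apart from the one before.

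In untreated null cells Bmpr1a was still the highest at 28.4 ± 0.816 CPM per kb, but Tgfbr3 at 17.0 ± 1.04 and Acvr2a at 14.3 ± 0.729 came next, above Bmpr2 at 11.7 ± 0.272. Acvr1b at 8.65 ± 0.871 and Tgfbr1 at 8.65 ± 0.339 overlapped, and Acvr1 at 5.72 ± 0.252 was below both. With H2O2 the order in floxed cells was Bmpr1a, Bmpr2, then Tgfbr3, Tgfbr1 and Acvr1, of which each overlapped the next, then Acvr2a, Acvr1b, Eng and Acvr2b. In treated null cells it was Bmpr1a, Tgfbr3, Bmpr2, then Acvr1b and Acvr2a, which overlapped, then Tgfbr1, Acvr1, Eng and Acvr2b.

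Within these 3 type II receptors, with Tgfbr2 left out, Bmpr2 made up 70.2% ± 1.49 (SD, n = 3) of the counts per kilobase in untreated floxed cells and 44.2% ± 1.74 in untreated null cells. Acvr2a made up 29.2% ± 1.35 and 54.4% ± 1.92, so that it was the larger share in null cells. With H2O2 Bmpr2 was the larger share in both genotypes, at 72.6% ± 1.11 and 53.1% ± 0.775. The library ranges of these shares did not overlap between genotypes, and with 3 libraries against 3 an exact permutation test could not reach a two-sided p under 0.1. The sum of the 3 was 27.5 ± 2.07 CPM per kb in untreated floxed cells and 26.4 ± 0.414 in untreated null cells, with overlapping libraries.

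Within the 4 type I receptors among the 9 genes, with Bmpr1b left out, Bmpr1a held 57.4% ± 0.813 in untreated floxed and 55.3% ± 1.04 in untreated null cells. Acvr1b held 8.60% ± 0.698 and 16.8% ± 1.06, and Acvr1 17.7% ± 0.0624 and 11.1% ± 0.370. The sum was 65.0 ± 3.19 CPM per kb in untreated floxed and 51.4 ± 2.11 in untreated null cells.

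**Figure D3:**
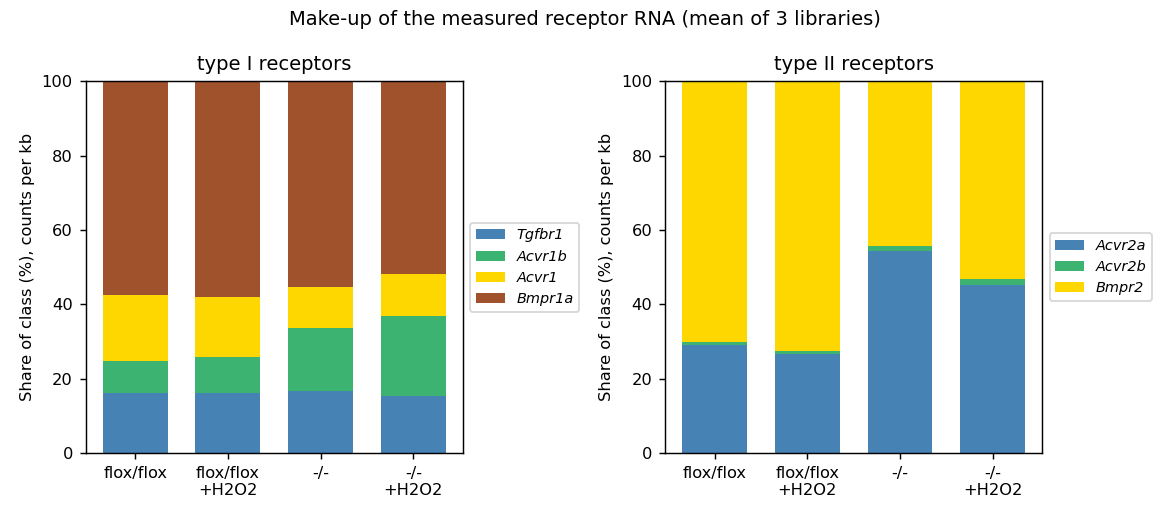
Share of each gene (vertical axis, %) in the counts per kilobase of the type I receptors (left) and of the type II receptors without Tgfbr2 (right), as the mean of 3 libraries in each of the 4 groups. Bmpr2 falls from 70.2% of the type II receptors in untreated floxed to 44.2% in untreated null cells, and Acvr1b takes 8.60% and 16.8% of the type I receptors.

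Each receptor was also set beside its 24 nearest tested genes, 12 on each side. Acvr1b, on chromosome 15, had a log2 fold change between untreated genotypes of 0.63 while its neighbours had a median of 0.88. Of the 24, 19 were called higher, against 33.3% of all genes. The genes tested on chromosome 15 had a median of 0.36 and all genes had a median of 0.0085. Chromosome 2, with Acvr2a, Acvr1 and Eng, had a median of 0.30, and chromosome 5, with Tgfbr3, had one of 0.29. Medians of the chromosomes of the remaining receptors lay between −0.084 and 0.043. With H2O2 18 of the 24 neighbours of Acvr1b were called higher, against 35.1% of all genes. The difference for Acvr1b (95% interval 0.46 to 0.79) thus lay below the median of the genes around it. Between untreated genotypes, Acvr2a and Tgfbr3 exceeded their neighbours' medians of 0.38 and 0.37. For each of these receptors 16 of the 24 neighbours were called higher. With H2O2 Acvr2a was at 0.35 and its neighbours at a median of 0.33, with 15 called higher. Tgfbr3 was then at 0.65 and its neighbours at 0.34, with 14 called higher. Untreated, Acvr1 and Bmpr1a were lower while their neighbours had medians of 0.23 and 0.30. Around Tgfbr1, Acvr2b and Bmpr2 the untreated medians were −0.082, 0.071 and −0.024. The part of the chromosome or its region in the differences of Acvr1b and the other receptors was not tested.

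**Figure D4:**
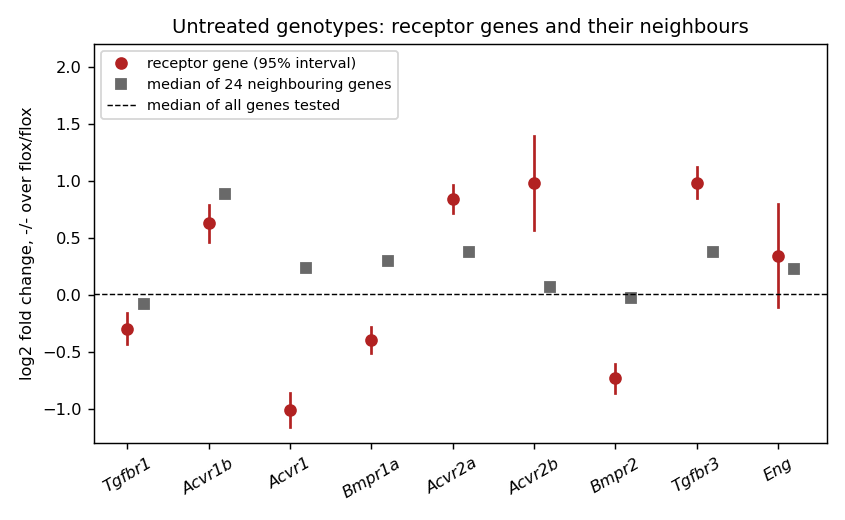
Log2 fold change of null over floxed cells without treatment (vertical axis) for each receptor gene, with its 95% interval, and the median of its 24 neighbouring tested genes (squares); the dashed line is the median of all genes. The squares lie between −0.082 and 0.88, and that of Acvr1b is the farthest from the dashed line.

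Between untreated genotypes, the 4 Tgfbr1 transcripts with a mean of at least 10 counts had log2 fold changes from −0.30 to −0.22, the 6 of Acvr1 from −1.01 to −0.67, the 4 of Bmpr1a from −0.46 to −0.34 and the 3 of Bmpr2 from −0.79 to −0.73. The 2 of Acvr2a lay at 0.84 and 0.90, with the 4 of Acvr2b from 0.74 to 0.99, the 4 of Tgfbr3 from 0.98 to 1.24 and the 4 of Eng from 0.35 to 0.40, so that no transcript of a receptor differed in sign from the others of its gene. Transcripts of a gene can share reads, so that these are not separate measurements and say nothing of isoform use.

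Among the 12272 genes compared for likeness, each centred on its own mean, the closest to Tgfbr1 over the 12 libraries were Emc3 and Bmpr1a, with root mean square differences of 0.0681 and 0.0696 on the log2 scale. Bmpr1a was closest to Emc3 (0.0522) and 9530068E07Rik (0.0600). Bmpr2 was closest to Amer1 (0.0540) and Npc1 (0.0566), and Acvr1 to Dnajc3 and Tmem132a (0.0753 for both). Acvr2a was closest to Retreg1 (0.0623) and Cldn1 (0.0748), Acvr1b to Dyrk1b (0.0964) and Rfx5 (0.107), and Tgfbr3 to Abca2 (0.0827) and Fam171b (0.0944). The low counts of Acvr2b and Eng gave larger differences to their closest genes, 0.146 to Vwa1 and 0.153 to Hs3st1 for Acvr2b, and 0.149 to Gm42957 and 0.171 to Cdc20 for Eng.

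The rest of the pathway was read from lists chosen by name, and their counts stand beside the 33.3% of all genes that were called higher and the 31.4% called lower between untreated genotypes. Of the 5 other receptors of the family, 2 were tested: Tgfbr2, given above, and Bmpr1b, a BMP type I receptor, which had 0.351 ± 0.607 against 8.23 ± 3.04 normalized counts (untreated floxed against null cells, as for all values that follow) and was higher (adjusted p = 0.000296). Of 6 co-receptors tested, 1 was higher, Nrp1 at a log2 fold change of 0.58, and 4 were lower, most of all the pseudoreceptor Bambi at −1.63 (11.6 ± 3.89 against 3.65 ± 1.54 normalized counts). Of 8 genes tested from the list of TGF-β and activin ligands, Inhbb was higher (2.76) and the other 7 were lower. The largest fall was that of Inha at −3.90, which encodes the inhibin α subunit and is not itself a TGF-β or activin gene. Of 5 BMP ligands 2 were higher, with Bmp7 uncounted in the 3 floxed libraries and at 9.46 ± 4.70 normalized counts in null cells, and Bmp6 was lower (−0.15).

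Of the 8 Smads 3 were higher, led by Smad9 at 1.85, and 4 were lower, led by the inhibitory Smad7 at −1.27. Of 17 regulators of the receptors 3 were higher, led by the ubiquitin ligase Wwp1 at 0.59, and 10 were lower, led by Pmepa1, an inhibitor of TGF-β signalling, at −3.63. Of 9 ligand antagonists 2 were higher, led by Sostdc1 with 0.371 ± 0.642 against 11.2 ± 2.78 normalized counts, and 4 were lower, led by the BMP antagonist Nog at −5.08. Of 6 TGF-β target genes 5 were lower and 1, Tgfbi, was higher (3.35, 3.91 ± 2.99 against 41.4 ± 6.42 normalized counts), with a median of −1.98 over the 6. Of 6 BMP target genes 3 were higher, led by Id2 at 2.93, and Smad7 was lower, with a median of 0.24. Bmpr1b, Bmp7, Sostdc1 and Tgfbi had few or no counts in floxed cells and passed the filter on low counts through null cells. Their calls as higher thus followed largely from the filter and carry little weight beside the share of all genes. The lists share genes and are not separate measurements. Smad7 stands in both target lists and among the Smads, and Smad6 among the Smads and the BMP targets. Pmepa1 stands among the regulators and the TGF-β targets. The medians were −0.52 over the co-receptors, −0.58 over the TGF-β and activin ligands, 0.19 over the BMP ligands, −0.19 over the Smads, −0.25 over the regulators and −0.19 over the antagonists, against 0.0085 over all genes.

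Under H2O2, where 35.1% of all genes were called higher and 31.3% lower in null cells, the lists held 1 co-receptor higher and 3 lower, 1 TGF-β or activin ligand higher and 6 lower, 3 BMP ligands higher and 2 lower, 2 Smads higher and 3 lower, 2 regulators higher and 9 lower, 2 antagonists higher and 4 lower, 1 TGF-β target higher and 5 lower, and 1 BMP target higher and 3 lower. With H2O2 in floxed cells (21.0% of all genes called higher and 20.5% lower), 4 co-receptors rose and none fell, 5 TGF-β and activin ligands rose and 2 fell, 3 BMP ligands rose and none fell, 4 Smads fell and none rose, 4 regulators rose and 6 fell, and 3 antagonists rose and 3 fell. None of the TGF-β or BMP targets rose there, and 3 and 4 of them fell. In null cells (20.5% and 19.1%) 4 co-receptors rose and 1 fell, 5 TGF-β and activin ligands rose and 2 fell, 3 BMP ligands rose and 1 fell, 1 Smad fell and none rose, 3 regulators rose and 4 fell, 3 antagonists rose and 3 fell, 1 TGF-β target rose and 2 fell, and 4 BMP targets fell and none rose. The interaction, called for 10.2% of all genes, was called for 1 co-receptor, 3 BMP ligands, 1 Smad, 1 regulator and 2 BMP targets. It was also called for 1 gene of the TGF-β and activin ligand list, Inha, and for no antagonist or TGF-β target.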

How the data were processed

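Polyadenylated RNA of PT cells was sequenced in 12 stranded libraries. Alignment by the authors was with STAR on GRCm38.p6. Their methods describe counting per gene with featureCounts, whereas the deposited values are raw counts per transcript, and how reads were given to transcripts is not given in the sources used here. The 106332 transcripts were matched by Ensembl identifier to GENCODE M39 (104820 matched, and the other 1512 held 1.22 to 1.28% of the counts), and each of 25514 genes was given the count of its transcript with the highest total. The design had assumed that such counts might be per gene. Genes were filtered by edgeR's filterByExpr, normalized by TMM and tested with edgeR 4.0.16 (R 4.3.3) by the quasi-likelihood method, with 1 coefficient per group over all 12 libraries and Benjamini-Hochberg adjustment. Alternatives were DESeq2 1.42.0, another normalization, other filters, summed transcripts, the groups compared alone, a replicate block and each library left out. Gene totals of 15870155 to 20857618 per library set the counting precision, which was poorest for Acvr2b and Eng. On simulated counts with a fold change of 2 between untreated genotypes, edgeR recovered 190 of 198 changed genes and called 9 others among 12764. The simulation changed only these few genes, with as many raised as lowered, and used 1 dispersion of 0.01 for all genes. In the data 64.7% of genes were called between untreated genotypes, so these figures need not carry over to them.

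Named genes were the 9 receptors, Tgfbr2, the largest called rise and fall in each pathway list between untreated genotypes, and the 2 most similar protein-coding genes with a mean of at least 10 counts (root mean square difference of log2 normalized counts plus 1). Not every gene this rule names is reported here. The members and lists were chosen with earlier results of these data known. Replicates of a group differed by more than sampling noise, with a chi-square per gene of 3.58 to 12.0. Same-numbered libraries did not deviate together (correlations −0.0898 to 0.0582), so numbers pair nothing. RefSeq promoter windows were searched on both strands for the motifs given with the sequences.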

Additional observations from a re-analysis of the deposited data

Results flagged for a closer look

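The change with H2O2 differed between the genotypes, by the interaction test of edgeR's quasi-likelihood method, for 4 of the 9 receptors. The differences of log2 fold changes (TβRII-/- minus TβRII flox/flox PT cells) were −0.37 for Tgfbr1, −0.34 for Bmpr1a, −0.48 for Acvr2a and −0.34 for Tgfbr3. Acvr2a moved in opposite directions, 0.13 in TβRII flox/flox PT cells, where it did not pass the test, and −0.35 in TβRII-/- PT cells, where it did. Of all genes 10.2% were called in this test.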

How the results depend on the processing

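The number of receptors called between genotypes was 8 in every fit, untreated and with H2O2, including each fit that left out 1 library. It ranged from 5 to 6 for H2O2 in TβRII flox/flox PT cells, from 3 to 5 for H2O2 in TβRII-/- PT cells and from 3 to 4 for the interaction when libraries were left out. With the replicate number as a block, which shares only a number between libraries, the counts were 8, 8, 5, 4 and 4, as without it. One alternative, leaving out genes encoded by mitochondrial DNA, was added after the data were seen.

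Bmpr2 in TβRII-/- PT cells with H2O2 was also lost with transcripts summed (adjusted p = 0.0907). Acvr1 in TβRII flox/flox PT cells with H2O2 passed in 3 fits (adjusted p from 0.0282 to 0.0497) and Eng in TβRII-/- PT cells in 7 (0.0232 to 0.0469). Signs turned only for values that were not called. For Eng in TβRII flox/flox PT cells with H2O2 the log2 fold change was 0.033 with transcripts summed and ranged from −0.081 to 0.097 over the fits without 1 library, above 0 without untreated replicate 1 or treated replicate 2 of that genotype. In TβRII-/- PT cells with H2O2 Acvr1 ranged from −0.017 (without treated replicate 3) to 0.12 and Acvr2b from −0.064 (without untreated replicate 2, and −0.0080 without treated replicate 3) to 0.18. The interaction of Acvr1b ranged from −0.14 to 0.026, above 0 without untreated TβRII flox/flox replicate 3 or untreated TβRII-/- replicate 2. Scaling by total counts in place of TMM moved 11 group levels of the receptors by more than their SD and left 25 within it. The cause was not tested. Low counts limit what can be said of Acvr2b and Eng.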
